A study of Mus musculus with 6 samples.

Results

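The growth hormone and insulin-like growth factor (IGF) axis was examined through 10 genes: the receptor gene Ghr, the kinase gene Jak2, the transcription factor genes Stat5a and Stat5b, the feedback genes Socs2 and Cish, and the IGF-system genes Igf1, Igfals, Igfbp1 and Igfbp2. They were chosen by name among the 27179 genes of the count tables, and Entrez identifiers were matched to mouse symbols. All 10 were found and all 10 passed the filter on low counts. The libraries came from flash-frozen livers of C57BL/6 mice, 3 wild type and 3 Mettl3-deficient. Mettl3 encodes the catalytic subunit of the enzyme complex that places N6-methyladenosine on RNA. Libraries are numbered 1 to 3 within each genotype as in the labels. No treatment, age or sex, no promoter or Cre line and no way of making the deficiency is given in the sources used here, and whether each liver is a separate animal is not stated. The p-values therefore measure the spread between these 6 samples.

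As background, growth hormone from the pituitary binds its receptor on hepatocytes, and the receptor-bound kinase JAK2 then phosphorylates STAT5A and STAT5B. The activated STAT5 proteins enter the nucleus and turn on the IGF1 gene, the gene for the acid-labile subunit that keeps IGF1 in the circulation, and the feedback inhibitors SOCS2 and CISH. In rodents growth hormone is secreted in separated pulses in males and more evenly in females, and many liver genes are sex-biased through this route.

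Mettl3 itself stood at 13.4, 14.3 and 12.1 CPM (counts scaled by library size and by the trimmed mean of M values, TMM) in the wild-type livers and at 5.96, 6.60 and 4.94 CPM in the deficient livers, so the groups did not overlap. Library totals ran from 31960205 to 36025772 counts. The Y-linked genes Ddx3y, Uty, Kdm5d and Eif2s3y together held 6508 counts in wild-type library 1, 4747 in deficient library 1 and 5031 in deficient library 2, and 0 in the other 3 libraries, where Xist held 14556 to 19578 counts. Only 1 wild-type library carried Y-linked transcripts, so in wild-type livers Y-linked status and that single library cannot be told apart. Wild-type library 1 also correlated less with the other wild-type libraries (0.943 and 0.939 across genes) than these did with each other (0.983). Hepatocyte markers were present throughout, but the summed level of 8 of them (Alb, Apoa1, Ttr, Apob, Cps1, Ass1, Serpina1a and Hnf4a) was 142666 to 176156 CPM in wild-type livers and 46433 to 76369 CPM in deficient livers.

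The promoters of 3 axis genes are shown for the motifs they hold. Whether these motifs bear on the levels described below was not tested. The sequences were read from RefSeq promoter windows of GRCm38.p6, the build family of mm10. These windows reach from 250 bases before to 50 after an annotated start. Windows were found for 9 of the 10 genes, 15 windows in all, and none was found for Socs2. STAT5 proteins bind the element TTCNNNGAA, which reads the same on both strands. Among these 9 genes it occurred in the windows of Cish and Igfals, and in 8.3% of all 32851 windows. At least 2 matches in 1 window, as in Cish, were found in 0.457% of windows. In the first 3 sequences below the capitals mark TTCNNNGAA. The fourth is Igfbp1, where the capitals mark CAAAANAA on either strand, the core of the insulin response element known from this gene. That motif was chosen with the Igfbp1 sequence in view, and 7.95% of all windows held it at least once and 0.776% at least 2 times. A match describes letters and shows no binding.
Cish, 30 bases at chr9:107296654-107296683, plus strand, over the annotated start: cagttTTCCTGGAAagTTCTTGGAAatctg
Igfals, 30 bases at chr17:24878168-24878197, plus strand, before an internal start: aggtgTTCCTAGAAgaggccctgggggagg
Igfals, 250 bases at chr17:24877594-24877843, plus strand, before the first start: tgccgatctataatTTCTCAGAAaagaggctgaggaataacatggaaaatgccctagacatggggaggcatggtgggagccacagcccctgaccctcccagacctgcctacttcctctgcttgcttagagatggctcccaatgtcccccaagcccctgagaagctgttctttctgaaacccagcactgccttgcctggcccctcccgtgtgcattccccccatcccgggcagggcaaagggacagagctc
Igfbp1, 250 bases at chr11:7197537-7197786, plus strand, before the start: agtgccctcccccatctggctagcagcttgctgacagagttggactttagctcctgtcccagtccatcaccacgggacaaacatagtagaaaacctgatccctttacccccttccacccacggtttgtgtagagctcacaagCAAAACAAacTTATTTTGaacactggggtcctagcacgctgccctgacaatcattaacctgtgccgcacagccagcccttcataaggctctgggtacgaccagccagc

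The comparison of Mettl3-deficient with wild-type livers asks which genes differ in level when Mettl3 is reduced. Of the 10 axis genes, Igfbp1 rose, Ghr and Igf1 fell, and 7 were not called by edgeR's quasi-likelihood test at an adjusted p under 0.05. Among all 14380 genes tested, 23.8% were called, 13.3% higher and 10.5% lower, so 1 higher and 2 lower of 10 is close to the background. The CPM ranges of the groups were separate for 1 higher gene (Igfbp1) and 3 lower genes (Ghr, Igf1 and Igfbp2), against 23.9% and 21.9% of all tested genes. The median log2 fold change of the 10 genes was -0.29 and that of all tested genes 0.01. Without composition factors, scaling by library size alone raised the median of all genes to 0.49 and that of the axis genes to 0.19, and the share of calls that were higher from 55.7% to 89.0%. It turned Jak2, Stat5b, Socs2 and Igfals to values above 0. Directions below are relative to the TMM scale.

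**Figure D1:**
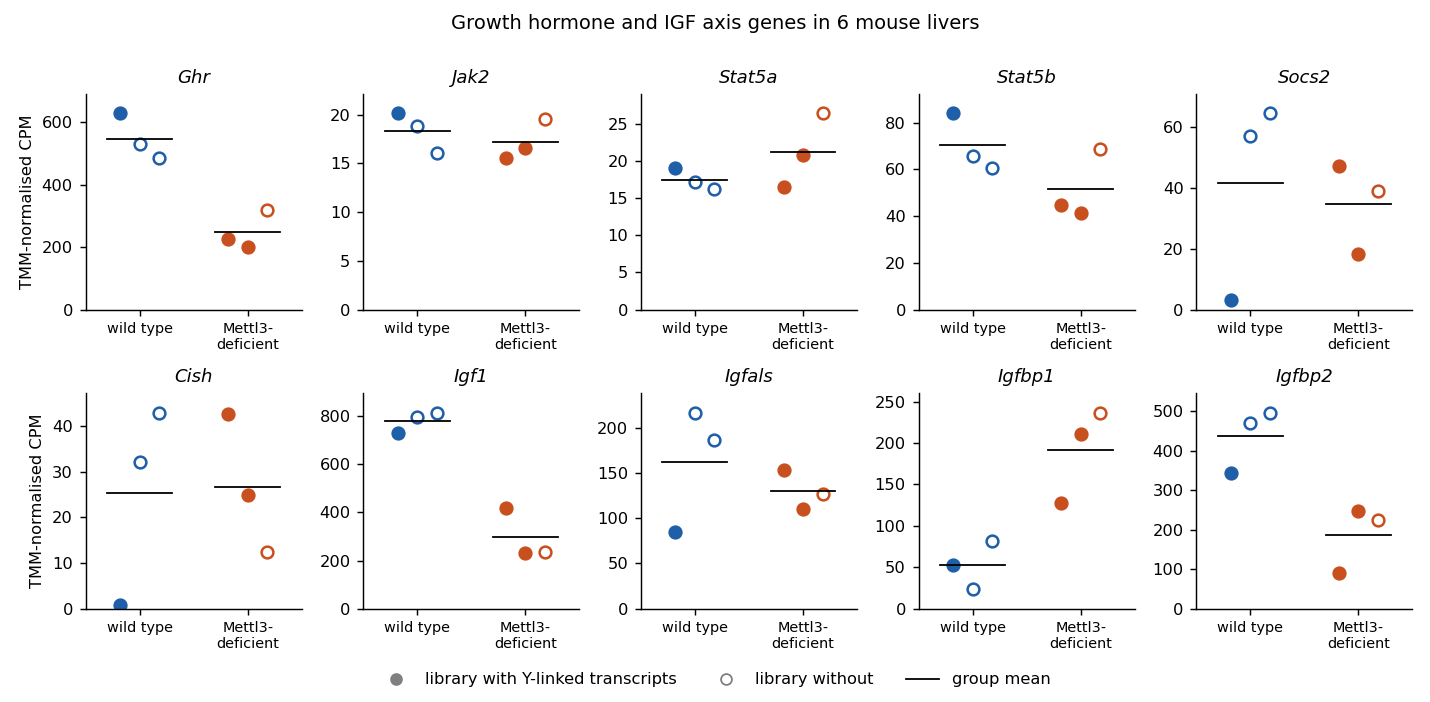
TMM-normalised CPM of the 10 axis genes (vertical axes, each from 0) in 3 wild-type (blue) and 3 Mettl3-deficient (orange) livers, with group means as black lines. Filled points are libraries with Y-linked transcripts. The groups are separate for Ghr, Igf1, Igfbp1 and Igfbp2, and the filled wild-type point lies near 0 for Socs2 (3.09 CPM) and Cish (0.781 CPM).

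Ghr (Entrez 14600, chromosome 15, 3317755 to 3583352, GRCm38) encodes the growth hormone receptor and, through an alternative transcript, the soluble growth hormone binding protein, which gene counts cannot separate. It stood at 629, 529 and 485 CPM in wild-type livers and at 227, 201 and 320 CPM in deficient livers. Every deficient library was below every wild-type library, and deficient library 3, the one without Y-linked transcripts, was the highest of its group. The mean went from 548 ± 73.6 to 249 ± 62.3 CPM (SD, n = 3), a log2 fold change of -1.14 ± 0.25 (SE, edgeR adjusted p = 0.018). The call of Ghr was lost without wild-type library 2 (edgeR adjusted p = 0.0599), without deficient library 1 (0.0809) and with scaling by library size alone (-0.68, 0.051). In bulk liver, fewer hepatocytes and less Ghr RNA per hepatocyte cannot be told apart. The hepatocyte marker sum, most of which was Alb (108639 to 141166 CPM in wild-type livers), moved in the same direction. Of its 8 genes 3 fell (Alb, Serpina1a and Hnf4a), where 10.5% of all tested genes did so. The groups were separate with deficient livers lower for 7, all but Cps1, against 21.9% of all tested genes. The part of these markers in the Ghr result, and in those of Igf1, Igfbp2 and Igfbp4 below, was not tested.

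Downstream of the receptor, none of the 3 signal carriers was called. Jak2 (Entrez 16452, chromosome 19), the receptor's kinase, ranged from 16.1 to 20.1 CPM in wild-type and from 15.6 to 19.6 CPM in deficient livers, and its log2 difference was -0.09 ± 0.17 (edgeR adjusted p = 0.714). Stat5a (Entrez 20850, chromosome 11, 100859351 to 100885169) ranged from 16.2 to 19.1 and from 16.5 to 26.5 CPM, with 0.28 ± 0.20 (edgeR adjusted p = 0.324). Stat5b (Entrez 20851, chromosome 11, 100780731 to 100859004), the more abundant STAT5 gene in liver, stood at 84.0, 66.0 and 60.8 CPM in wild-type livers and at 44.9, 41.3 and 68.7 CPM in deficient livers. Its 2 deficient libraries with Y-linked transcripts lay below all wild-type libraries and the third deficient library lay among them. The log2 fold change of Stat5b was -0.44 ± 0.23 (edgeR adjusted p = 0.187), and it was called only without deficient library 3 (-0.70, edgeR adjusted p = 0.0367). Stat5a was called higher only with library size alone (0.75, edgeR adjusted p = 0.0222).

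Because the STAT5 genes lie 346 bases apart and share a role, their ratio within each library was compared, which does not depend on scaling between libraries. Per kilobase of exon, Stat5b exceeded Stat5a by 2.50, 2.30 and 2.27 on the log2 scale in wild-type livers and by 1.81, 1.35 and 1.74 in deficient livers. Each deficient library had a smaller excess than each wild-type library. The means were 2.36 ± 0.126 and 1.63 ± 0.246 (SD, n = 3), a difference of -0.72 with a two-sided exact permutation p of 0.1. This is the smallest p that 20 assignments of 3 against 3 allow, so the design cannot reach 0.05, and the p adjusted over the 3 ratios tested is also 0.1.

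Socs2 and Cish, the feedback inhibitors that STAT5 turns on, were not called and had a wide spread among wild-type livers. Cish (Entrez 12700, chromosome 9, 107296659 to 107302784), whose start holds the paired TTCNNNGAA shown above, stood at 0.781, 32.2 and 43.0 CPM in wild-type livers (22, 912 and 1164 counts). In deficient livers it stood at 42.7, 25 and 12.5 CPM (1720, 1128 and 494 counts). Wild-type library 1 was far below the other 5 libraries, and the groups overlapped. The log2 fold change of Cish was 0.08 ± 1.23 (edgeR adjusted p = 0.97). It was -0.50 without wild-type library 1 (edgeR adjusted p = 0.445).

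Socs2 (Entrez 216233, chromosome 10, 95383903 to 95417321), whose absence in mice is known to cause overgrowth, was also lowest in wild-type library 1. Its levels were 3.09, 56.9 and 64.3 CPM in wild-type livers and 47.1, 18.3 and 38.7 CPM in deficient livers. That library held 87 counts of Socs2 against 826 to 1899 in the others, and the groups overlapped. The log2 fold change of Socs2 was -0.26 ± 1.01 (edgeR adjusted p = 0.873), and -0.81 without wild-type library 1 (edgeR adjusted p = 0.139). The summed level of 6 Kupffer cell markers was also lowest in that library, at 79.3 CPM against 279 to 563 CPM in the others, and its part in these values was not tested.

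The effect of genotype was then taken apart by Y-linked status. In libraries with Y-linked transcripts, Cish was higher in both deficient livers than in the wild-type liver. In libraries without them, it was lower in the deficient liver than in both wild-type livers. A model with the group, Y-linked status and their interaction, added after these values were seen, gave a log2 fold change of 5.43 with Y-linked transcripts and of -1.59 without. The difference between the 2 effects was 7.02 ± 0.63 (SE, edgeR adjusted p = 0.00869), among 1.11% of all tested genes called for such a difference. For Socs2 the effects were 3.40 and -0.65, with a difference of 4.05 ± 0.86 that was not called (edgeR adjusted p = 0.0994). This model rests on 1 wild-type library with and 1 deficient library without Y-linked transcripts, each assumed to vary like the others. It was fitted because these values had been seen, so its p-values describe the same observation and add no support to it.

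Igf1 (Entrez 16000, chromosome 10, 87858265 to 87937047) encodes the circulating growth factor through which growth hormone acts on the body. It stood at 730, 796 and 815 CPM in wild-type livers and at 420, 232 and 236 CPM in deficient livers. All deficient libraries were below all wild-type libraries, and wild-type library 1 did not stand apart, unlike for Cish and Socs2. The log2 fold change was -1.40 ± 0.29 (SE, edgeR adjusted p = 0.0149), or 2.64-fold lower. The median log2 fold change of the 8 hepatocyte markers was -1.01. As for Ghr, fewer hepatocytes and less Igf1 RNA per hepatocyte cannot be told apart in bulk liver. The call of Igf1 was lost without wild-type library 2 (edgeR adjusted p = 0.0535) or 3 (0.0517), with the fold change at -1.38 and -1.37.

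Igfals (Entrez 16005, chromosome 17, 24877844 to 24882011), the gene for the acid-labile subunit that binds IGF1 with an IGF binding protein in plasma, was not called. Its levels were 84.7, 217 and 186 CPM in wild-type livers and 153, 110 and 127 CPM in deficient livers, and wild-type library 1 was again the lowest of the 6. The log2 fold change was -0.32 ± 0.34 (SE, edgeR adjusted p = 0.508), and -0.63 without wild-type library 1 (edgeR adjusted p = 0.0614). The log2 ratio of Igfals to Igf1 counts within a library was -3.11, -1.87 and -2.13 in wild-type and -1.45, -1.08 and -0.89 in deficient livers, with every deficient value above every wild-type value. The difference of the means was 1.23 (two-sided exact permutation p = 0.1, the smallest possible).

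Of the binding proteins of the axis, Igfbp1 rose and Igfbp2 narrowly missed the threshold. Igfbp1 (Entrez 16006, chromosome 11, 7197787 to 7202546), a binding protein that insulin represses through the promoter element shown above, stood at 52.7, 24 and 81.4 CPM in wild-type livers and at 127, 211 and 237 CPM in deficient livers. Each deficient library was above each wild-type library. The log2 fold change of Igfbp1 was 1.86 ± 0.44 (SE, edgeR adjusted p = 0.0231), or 3.64-fold higher, and the call was lost without deficient library 2 (1.79, edgeR adjusted p = 0.0779) or 3 (1.68, 0.0585).

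Igfbp2 (Entrez 16008, chromosome 1, 72824480 to 72852474), a second binding protein made by hepatocytes, stood at 344, 471 and 497 CPM in wild-type livers and at 89.8, 247 and 224 CPM in deficient livers. The groups did not overlap, and the lowest of each group carried Y-linked transcripts. Its log2 fold change of -1.22 ± 0.38 missed the threshold (SE, edgeR adjusted p = 0.0517). It was called with DESeq2 (-1.24, adjusted p = 0.00508) and in edgeR without a filter on low counts (-1.21, edgeR adjusted p = 0.0449).

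The ratio of Igfbp1 to Igf1 counts within a library separated the groups widely. On the log2 scale it was -3.79, -5.05 and -3.32 in wild-type livers, so that Igf1 counts far exceeded Igfbp1 counts, and -1.72, -0.14 and 0.0025 in deficient livers. In deficient libraries 2 and 3 the counts of both genes were about equal. The means were -4.06 ± 0.894 and -0.62 ± 0.956 (SD, n = 3), a difference of 3.44 with a two-sided exact permutation p of 0.1, the smallest possible here. The groups were already separate for both genes, in opposite directions. The separation of the ratio and its p were thereby fixed and are no further result.

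**Figure D2:**
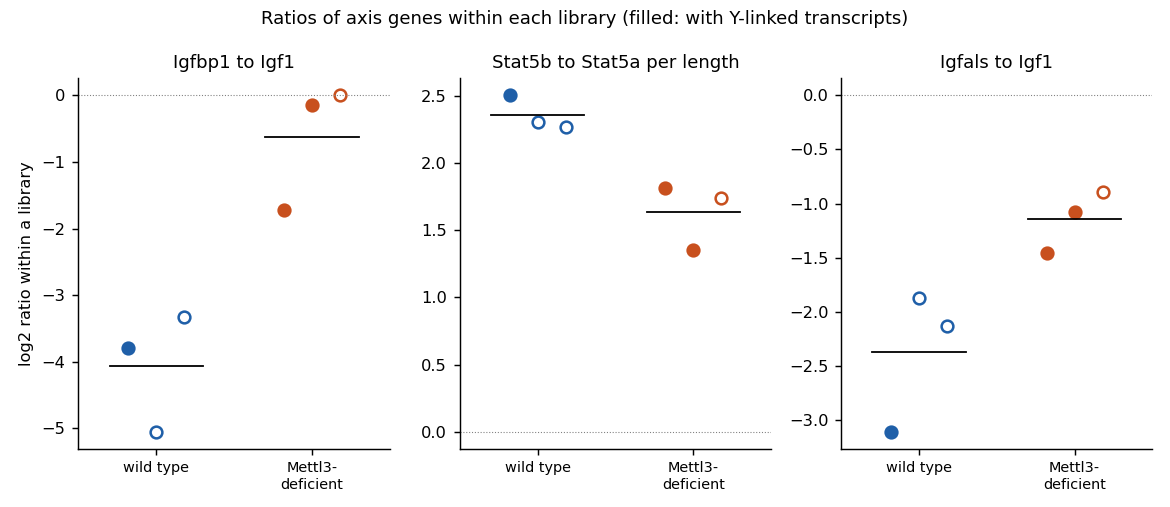
Log2 ratios of axis genes within each library (vertical axes), by group, with group means as lines and libraries with Y-linked transcripts filled. Every deficient point lies above every wild-type point for Igfbp1 to Igf1 and for Igfals to Igf1, and below for Stat5b to Stat5a per length.

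Levels of different genes were compared per kilobase of exon (GENCODE M21 exon unions). In wild-type livers the order of mean levels was Igfbp2 (237 ± 44.5 CPM per kilobase, SD, n = 3), Igf1 (78.8 ± 4.53), Ghr (60.5 ± 8.13), Igfals (51.4 ± 21.9), Igfbp1 (34.6 ± 18.8) and Stat5b (12.7 ± 2.20). Socs2 (4.35 ± 3.51), Cish (3.95 ± 3.42), Jak2 (3.65 ± 0.412) and Stat5a (2.45 ± 0.202) followed. The means of Ghr and Igfals, of Igfals and Igfbp1, and of Socs2, Cish and Jak2 differed by less than their spread. In deficient livers Igfbp1 came first (126 ± 37.5), with Igfbp2 (101 ± 46.1) within its spread. Igfals (41.1 ± 6.86), Igf1 (29.9 ± 10.8) and Ghr (27.5 ± 6.88) came next, and the others kept lower levels, from 2.98 for Stat5a to 9.32 for Stat5b.

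Of 15 other listed genes of the IGF system 12 passed the filter, and 1 rose and 2 fell, near the 13.3% and 10.5% of all tested genes. Igf2r, the receptor that clears IGF2 and carries mannose 6-phosphate proteins to lysosomes, rose from 22.5, 29.9 and 31.7 CPM to 80.4, 112 and 77.9 CPM. Its groups were well apart (log2 fold change 1.68 ± 0.21, edgeR adjusted p = 0.00319), and it was called under each alternative tried. Igfbp3, the main carrier of IGF1 in plasma, fell from 34.4, 50.9 and 66.0 to 20.3, 28.7 and 12.3 CPM (-1.30 ± 0.34, edgeR adjusted p = 0.031). Igfbp4, an abundant hepatic binding protein, fell from 1072, 2495 and 2300 to 720, 820 and 963 CPM (-1.23 ± 0.35, edgeR adjusted p = 0.0409). Igfbp3 lost its call in 6 of the 16 alternatives and Igfbp4 in 9, among them for both library size alone, a covariate for Y-linked status, and the omission of wild-type library 2 or 3 or deficient library 1. The number that fell was 0 without wild-type library 2 or deficient library 1, and 0 with library size alone, where 2 rose. It was also 0 with a block on replicate number and with the covariate for Y-linked status. It was 1 without deficient library 2 or with limma-voom. It was 3 without deficient library 3 or with a filter at CPM 1 in 3 samples, and 4 with DESeq2.

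Of the uncalled IGF-system genes, Igfbp5 went from 25.8 ± 13.6 to 7.58 ± 3.93 CPM with overlapping groups (-1.77 ± 0.54, edgeR adjusted p = 0.0525). Irs2, an adaptor of the insulin and IGF1 receptors, went from 6.08 ± 3.35 to 10.3 ± 3.33 CPM (edgeR adjusted p = 0.271). The receptor genes Igf1r and Insr were not called, with log2 fold changes of 0.71 and -0.01. Igfbp3 is produced largely outside hepatocytes. Among 7 endothelial markers 1 fell, Lyve1, where 10.5% of all tested genes did so. The sum of these markers was 159 to 240 CPM in wild-type and 150 to 185 CPM in deficient livers. None of 7 stellate cell and fibroblast markers was called by edgeR (0 at an unadjusted p under 0.05), with sums of 391 to 436 and 325 to 642 CPM. The part of these cells in the Igfbp3 result was not tested.

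**Figure D3:**
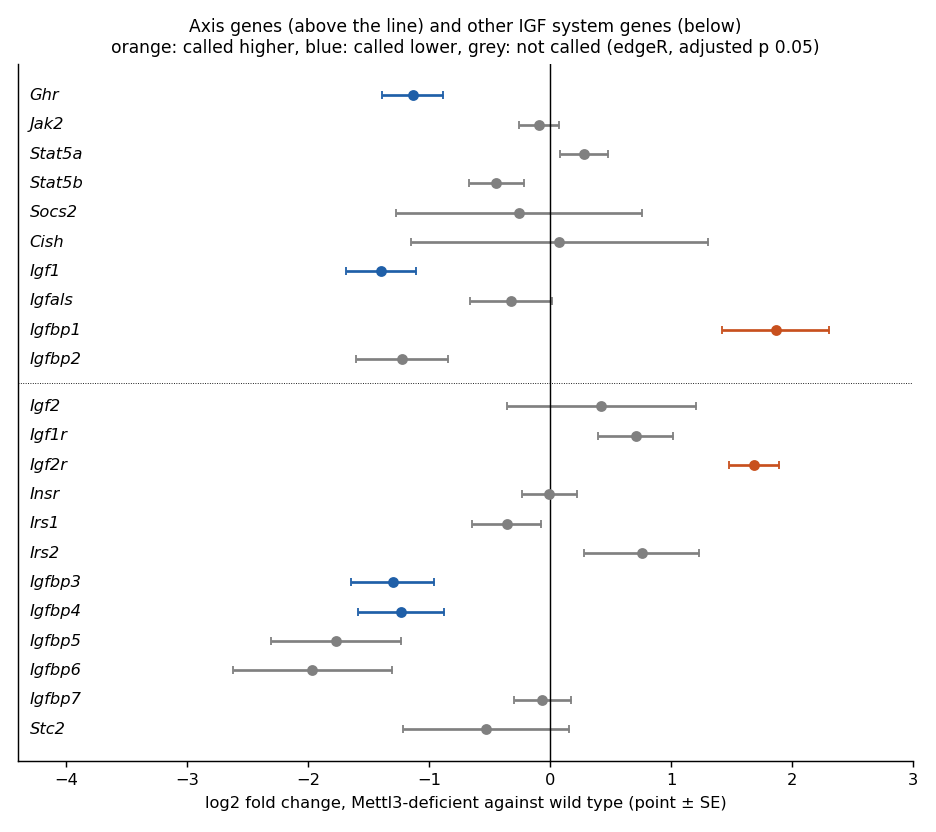
Log2 fold changes of Mettl3-deficient against wild-type livers with their standard errors (horizontal axis) for the 10 axis genes and, below the dotted line, 12 tested genes of the IGF system. Igfbp1 and Igf2r (orange) were called higher and Ghr, Igf1, Igfbp3 and Igfbp4 (blue) lower; the bars of Socs2 and Cish are the widest among the axis genes.

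Among 15 other genes of cytokine receptor signalling, 1 rose and 0 fell (2 had an unadjusted p under 0.05 in edgeR), where 13.3% and 10.5% of all tested genes did so. Sirpa, a membrane receptor that binds tyrosine phosphatases and is abundant on macrophages, went from 18.4 ± 7.06 to 43.5 ± 7.23 CPM, a log2 difference of 1.24 ± 0.29 (edgeR adjusted p = 0.0221). Its call was lost without wild-type library 2 or deficient library 1 or 2, and 3 genes of the list were called higher with library size alone. Of 7 monocyte and macrophage markers 6 rose (Ccr2, Ly6c2, Lyz2, Itgam, Gpnmb and Cd68), where 13.3% of all tested genes did so. Ly6c2, Lyz2 and Cd68 each lost the call without wild-type library 2 or 3 or deficient library 2. The sum of the 7 markers was 51.3 to 64.9 CPM in wild-type and 108 to 156 CPM in deficient livers. The part of these markers in the Sirpa result was not tested. The adaptor gene Sh2b1, a partner of JAK2, had -0.44 ± 0.19 (edgeR adjusted p = 0.127).

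Growth hormone targets that are known to be sex-biased in mouse liver were examined next. Of the 15 male-biased genes listed, 14 were tested, and 4 fell and 0 rose, where 10.5% and 13.3% of all tested genes did so. The median log2 fold change of the 14 was -3.36, beside 0.01 over all tested genes. Serpina1e, a protease inhibitor gene with near-identical copies whose counts are uncertain, fell from 12100, 4421 and 4429 CPM to 50.5, 34.6 and 32.8 CPM (edgeR adjusted p = 0.000698). Slco1a1, an organic anion uptake transporter, fell from 947, 221 and 164 CPM to 7.82, 3.61 and 14.4 CPM (edgeR adjusted p = 0.0091). These 2 were called under each alternative tried, whereas Ugt2b1 and Ugt2b38, which encode glucuronidating enzymes, were lost in several. The number that fell was 2 without any 1 deficient library and 2 with library size alone. Without wild-type library 1, 6 fell and 2 rose.

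The male-biased genes Hsd3b5 and Mup1 were not called, and their wild-type libraries differed widely. Hsd3b5, a steroid reductase gene, stood at 506, 7.81 and 10.7 CPM in wild-type livers and at 0.794, 0.0886 and 0.152 CPM in deficient livers (edgeR adjusted p = 0.0575). Mup1, a major urinary protein gene with near-identical copies, stood at 297, 2.40 and 0.998 CPM in wild-type livers, and a single count was found in the 3 deficient libraries (edgeR adjusted p = 0.0673). In wild-type livers 14 of 14 tested male-biased genes were higher in the library with Y-linked transcripts than in both without, against 42.4% of all tested genes. In deficient livers 1 of 14 was higher in both libraries with Y-linked transcripts than in the one without, and 4 were lower in both, against 38% and 38.2% of all tested genes. Both deficient libraries with Y-linked transcripts were below the wild-type library with them in 14 of 14, against 43% of all tested genes. The deficient library without them was below both wild-type libraries without them in 10 of 14 and above both in 4, against 42.2% and 44.3%.

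Of 17 female-biased genes 16 were tested and 0 were called by edgeR over all 6 libraries (3 had an unadjusted p under 0.05, and DESeq2 called 4 lower). The median log2 fold change of the 16 was -2.31, beside 0.01 over all tested genes, and 1 of the 16 was above 0. Without wild-type library 1, 13 fell. Cyp3a41a and Cyp3a41b, a near-identical pair of cytochrome P450 genes whose reads can be split between them, show the pattern. Cyp3a41a stood at 0, 72.5 and 42.0 CPM in wild-type livers and at 0.0496, 0.155 and 0.304 CPM in deficient livers. Cyp3a41b stood at 0.249, 74.2 and 62.9 CPM in wild-type livers and at 0.248, 0.0886 and 1.27 CPM in deficient livers. Thus both were near 0 in wild-type library 1 and in all deficient livers, and high in wild-type libraries 2 and 3.

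Over the whole female-biased list, wild-type library 1 was below both other wild-type libraries in 16 of 16 genes, against 40.9% of all tested genes. The deficient library without Y-linked transcripts was below both wild-type libraries without them in 15 of 16, against 42.2% of all tested genes. Both deficient libraries with Y-linked transcripts were above the wild-type library with them in 13 of 16, against 44.4%. Within wild-type livers edgeR called 12 of the 16 lower and 11 of the 14 male-biased genes higher in the library with Y-linked transcripts (4.58% of all genes were called in either direction). Within deficient livers it called 0 female-biased genes and 1 male-biased gene, Bcl6 (0.0556% of all genes). The difference between the effects was called for 8 female-biased and 3 male-biased genes, against 1.11% of all genes. These calls rest on the same lone libraries as those of Cish, and the lists were chosen by sex bias, so the wild-type counts check the libraries and are no separate result.

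**Figure D4:**
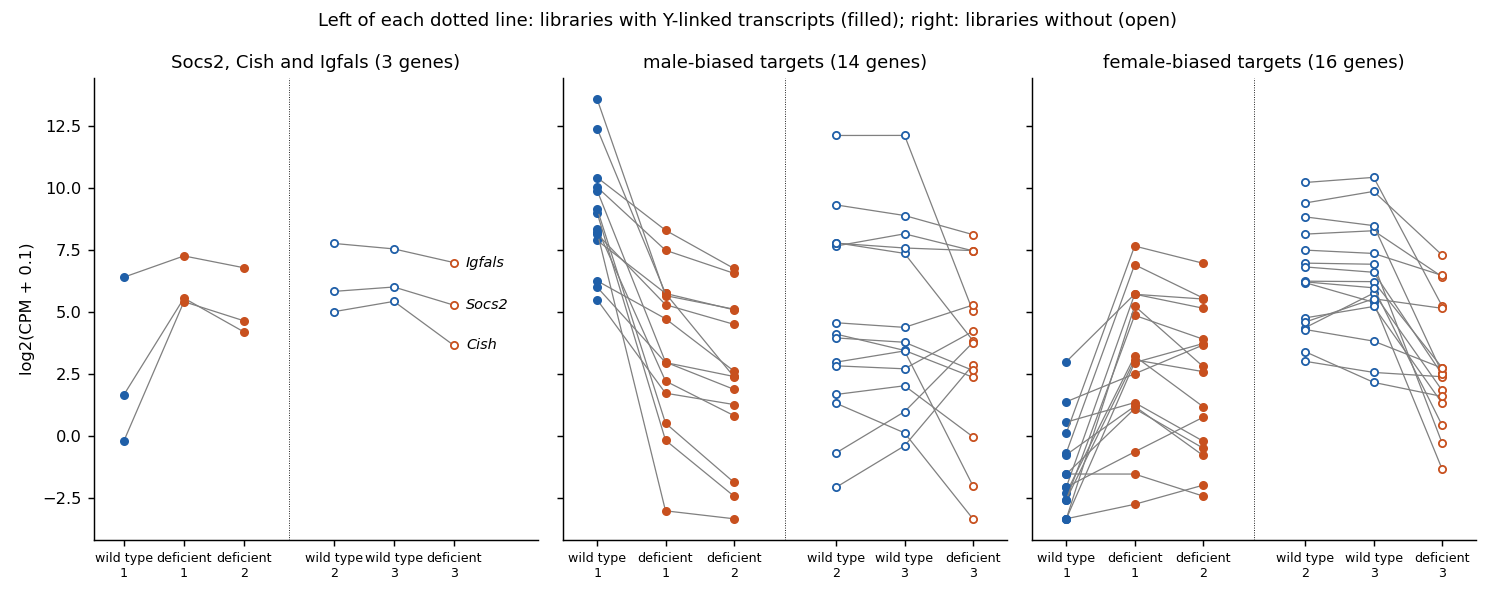
Log2(CPM + 0.1) of Socs2, Cish and Igfals (left), 14 male-biased targets (middle) and 16 female-biased targets (right) in each library, blue for wild type and orange for Mettl3-deficient. Lines join 1 gene across the libraries with Y-linked transcripts (filled) or without (open). Wild-type library 1 is the highest of the 6 for all 14 male-biased genes and the lowest for 13 of 16 female-biased genes, and the deficient libraries of both kinds lie at similar levels.

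Bcl6 and Cux2, which encode repressors that act on sex-biased genes, were on these lists and are named after their values were seen. Bcl6 stood at 44.9, 7.04 and 6.47 CPM in wild-type livers and at 3.23, 2.32 and 18.6 CPM in deficient livers, so the order by Y-linked status was opposite in the 2 genotypes. This order rests on 1 wild-type library with and 1 deficient library without Y-linked transcripts. Cux2 stood at 0.107, 20.7 and 54.2 CPM in wild-type livers and at 9.26, 2.19 and 3.52 CPM in deficient livers.

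Of the lipid uptake genes Cd36, Pparg, Vldlr and Lpl, which growth hormone is known to hold low in liver, 4 of 4 rose, where 13.3% of all tested genes did so. Wild-type library 1 was below both other wild-type libraries for each of the 4, as for 40.9% of all tested genes. Cd36, a fatty acid receptor, stood at 20.5, 21.1 and 21.7 CPM in wild-type and at 180, 184 and 224 CPM in deficient livers (log2 fold change 3.21 ± 0.17, edgeR adjusted p = 0.000307). Vldlr, a receptor for triglyceride-rich lipoproteins, went from 2.34 ± 1.36 to 11.7 ± 0.477 CPM (edgeR adjusted p = 0.0133). The nuclear receptor gene Pparg rose 2.94-fold and the lipoprotein lipase gene Lpl 3.75-fold. Lpl lost its call without wild-type library 2 (edgeR adjusted p = 0.0512), while Cd36, Pparg and Vldlr were called under each alternative tried. Cd36, Pparg and Lpl are also expressed in macrophages, whose markers rose, and the part of these cells was not tested.

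**Figure D5:**
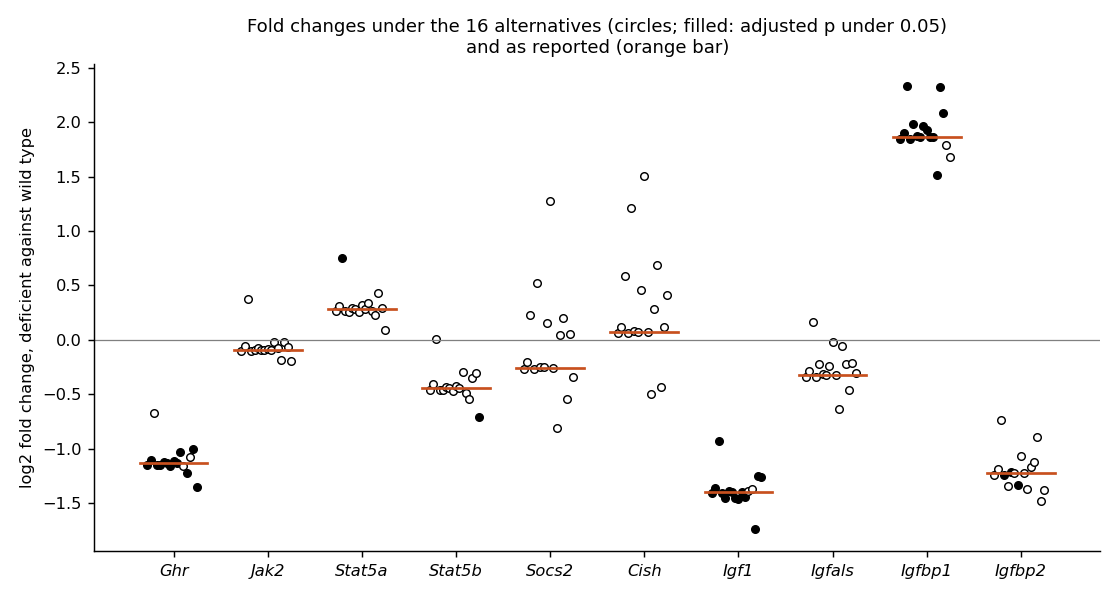
Log2 fold changes of the 10 axis genes (vertical axis) as reported (orange bars) and under 16 alternatives of scaling, filter, tool, covariate and left-out library (circles, filled where the adjusted p was under 0.05). Ghr, Stat5a, Igf1, Igfbp1 and Igfbp2 keep their sign throughout, while Jak2, Stat5b, Socs2, Cish and Igfals fall on both sides of 0. Jak2, Stat5b and Igfals change sign only with library size alone.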

How the data were processed

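RNA-seq was done on 6 livers, 3 per genotype. Per the labels' protocols, TRIzol RNA was depleted of ribosomal RNA and made into directional libraries. HISAT2, featureCounts and mm10 stand in the submitters' processing notes. No version, setting, annotation or strand use is given in the sources used here. What the authors deposited are raw, unnormalized counts for each Entrez gene. RefSeq symbols (GRCm38.p6) were found for 25275 of 27179 identifiers, and exon lengths came from GENCODE M21. If the counting ignored strand, antisense overlaps cannot be told apart.

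The main test was edgeR 4.0.16 under R 4.3.3 (robust quasi-likelihood, TMM, genotype as the sole term, two-sided), on the 14380 genes that filterByExpr passed (per-sample count setting 10, total setting 15). A gene was called when its p, adjusted by Benjamini-Hochberg over all of these, was under 0.05. Standard errors are the fold change divided by the root of F. Ratios within a library had 0.5 added to each count and were compared by exact permutation. The procedure was tested on simulated data.

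The 10 genes, the lists, tests and alternatives were chosen with earlier results of these data known. Beside the axis genes, each list contributes its called genes of smallest p (up to 6) and up to 2 uncalled genes of largest fold change at a mean CPM of at least 5; Mettl3 and chromosomal neighbours were also named, and others after their values were seen. Alternatives were RLE and upper-quartile factors, library size alone, DESeq2 1.42.0, limma-voom 3.58.1, no filter, a filter at CPM 1 in 3 samples, blocking on replicate number, a covariate for over 100 Y-linked counts, dropping the 20 top genes, omitting each library in turn, and, for ratios, 5 added. The interaction with Y-linked status was added after seeing the data. Single values of some list genes are not reported here.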

Additional observations from a re-analysis of the deposited data

Results flagged for a closer look

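Some results were marked because the group effect differed between libraries with and without Y-linked transcripts, or because every library of one kind moved one way and every library of the other kind the opposite way. The tests were chosen after these values had been seen and rest on 1 wild-type library with and 1 deficient library without such transcripts, so their p-values are descriptions. Among the axis genes the difference between the effects was called by edgeR for Cish (adjusted p = 0.00869). Socs2 (edgeR adjusted p = 0.0994), Igfals (0.135), Stat5b (0.0715) and Jak2 (0.36) had opposite signs in the libraries with and without Y-linked transcripts, but the difference was not called. The values of Socs2, Cish and Igfals were higher in deficient than in wild-type livers with Y-linked transcripts and lower in those without, and those of Stat5b and Jak2 the reverse.

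Among the sex-biased targets the difference was called by edgeR for the male-biased genes Bcl6 (adjusted p = 0.00157), Mup20 (0.00345) and C6 (0.0135). It was also called for the female-biased genes Cyp2b9, Cyp2b13 and Sult2a1 (edgeR adjusted p = 0.00129 each), Cyp3a44 (0.0122), Cyp17a1 (0.0148), Cyp2a4 (0.0161) and Cyp3a41b (0.0329). Sult2a1, a sulfotransferase gene, had no counts in wild-type library 1. It stood at 455 and 357 CPM in the other wild-type livers and at 7.72, 13.2 and 5.80 CPM in deficient livers.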

How the results depend on the processing

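Igf1, Ghr, Igfbp1, Igfbp2 and Stat5a kept their direction under all 16 alternatives. With library size alone, 4810 genes were called higher and 595 lower, 2 axis genes higher and 1 lower, and 89.0% of calls were higher (55.7% with TMM). Leaving out 1 library gave 840 to 1932 genes called higher and 518 to 1582 lower, 0 to 1 axis genes higher and 0 to 3 lower, and 1072 genes were called in each such fit. The axis genes called lower numbered 0 without wild-type library 2 and 1 without wild-type library 3 or deficient library 1, and the one called higher was lost without deficient library 2 or 3. Directions turned as follows, with no adjusted p under 0.05. With library size alone the log2 fold changes were 0.38 for Jak2, 0.012 for Stat5b, 0.23 for Socs2 and 0.16 for Igfals. Socs2 was 0.53 with limma-voom, 0.15 with the replicate block, 1.27 with the Y-linked covariate, and 0.04, 0.05 and 0.21 when wild-type library 2, deficient library 2 or wild-type library 3 was omitted. Cish was -0.50 when wild-type library 1 and -0.43 when deficient library 1 was omitted, at most 0.69 among such omissions (wild-type library 3), 1.22 with limma-voom and 1.51 with the Y-linked covariate. The cause was not tested. Within libraries, the difference in the Igfbp1 to Igf1 ratio ran from 2.94 to 3.99, in Stat5b to Stat5a from -0.81 to -0.58, and in Igfals to Igf1 from 0.86 to 1.48 when 1 library was left out.

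Replicate numbers did not pair the samples: the correlations of same-numbered deviations were 0.0839, -0.0174 and 0.0335. With the replicate block 1528 genes were called higher and 1155 lower, and 1 and 3 axis genes, the added one being Igfbp2 (-1.34, edgeR adjusted p = 0.026), while Igfbp3 and Igfbp4 were lost. Wild-type libraries 2 and 3 did not correlate best with their own number. At 22 counts in its lowest library Cish is measured with little precision there.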

Other observations

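Several axis genes have a relative as their chromosomal neighbour, and the neighbours are given here as values. Stat3 (chromosome 11, 100886806 to 100939594), which carries cytokine signals, lies 1636 bases from Stat5a. It stood at 86.1, 137 and 132 CPM in wild-type livers and at 84.9, 96.2 and 110 CPM in deficient livers, and was not called (log2 fold change -0.29 ± 0.22, edgeR adjusted p = 0.357). Igfbp3 (chromosome 11, 7206086 to 7215498) lies 3539 bases from Igfbp1. It fell while Igfbp1 rose, so these neighbours had opposite calls. Igfbp5 (chromosome 1, 72858065 to 72874865) lies 5590 bases from Igfbp2, and both had lower means in deficient livers with edgeR adjusted p-values just above the threshold (0.0525 and 0.0517).

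Prlr, the prolactin receptor gene and the closest relative of Ghr, was named after its values were seen. It went from 200 ± 99.9 to 236 ± 94.2 CPM (SD, n = 3) and was not called (log2 fold change 0.24 ± 0.47, edgeR adjusted p = 0.736).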
